A study of Rattus norvegicus with 8 samples.

Results

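Zinc finger genes carried 54 of the 1967 regions (2.75%) whose m6A signal the authors listed as different between Mettl3-overexpressing and vector control cells. They were chosen by gene symbol: every row of both comparison tables whose name begins with Zfp, Znf, Zbtb, Zscan, Zkscan, Zfhx or Klf followed by a digit. The 54 regions lie in 52 genes, and the other 1913 regions lie in 1674 gene names. Primary vascular smooth muscle cells (VSMCs) of the rat, which form the contractile layer of arteries, either overexpressed Mettl3 or carried a vector. Each condition had 2 m6A immunoprecipitation (IP) libraries and 2 input libraries, 8 in all. The sources used here do not say how Mettl3 was introduced, or if the 2 libraries of each group stem from separate cultures or animals. The tables hold the authors' comparison of the 2 conditions and no value per library, so no replicate spread can be given for any region. For the same reason the smooth muscle identity of the cells was not checked against marker levels.

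N6-methyladenosine (m6A) is a methyl mark on adenosines within messenger RNA, written mainly by a complex whose catalytic subunit is Mettl3. In MeRIP-seq, RNA fragments that carry the mark are pulled down with an antibody and sequenced. C2H2 zinc finger proteins, the largest class of mammalian transcription factors, fold each finger around a zinc ion and read DNA through arrays of fingers. Many of them carry a further domain at the start of the protein: a KRAB domain recruits the corepressor Trim28, and BTB and SCAN domains bind other proteins. In VSMCs the best studied zinc finger factor is Klf4, which represses contractile genes when the cells leave the contractile state.

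Most of the zinc finger regions were listed with lower m6A signal in Mettl3-overexpressing cells. Per the authors' deposited table, 44 of the 54 zinc finger regions were lower (81.5%) and 10 were higher (18.5%), against 1666 lower (87.1%) and 247 higher (12.9%) of the other regions. Over all listed regions 86.9% were lower and 13.1% higher. At the authors' adjusted p (FDR) under 0.05, the threshold used throughout for a region that passed, 8 zinc finger regions fell and 2 rose. Those 8 were 14.8% of the zinc finger regions, where 11.3% of all listed regions passed as lower. The 2 that rose were 3.70%, where 2.64% of all listed regions passed as higher. In either direction 10 of the 54 zinc finger regions passed, where 14.0% of all listed regions did. These shares lie near those of all listed regions, so none is a result about zinc finger genes. No zinc finger gene had regions in both directions, but only 2 of the 52 genes had 2 regions, so this says little about direction. The sources used here do not say if the folds take the input libraries into account, so less m6A per RNA, less RNA per cell and fewer cells that make the RNA cannot be told apart.

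The deposited fold is above 1 in both tables. It stands for overexpression over vector in higher regions and for vector over overexpression in lower ones. Among lower regions the median was 28.7 for zinc finger genes and 26.2 for the other regions per the authors' deposited table. Among higher regions it was 39.1 for zinc finger genes and 25.6 for the others per the authors' deposited table. These folds carry a constant: for 42 of the 54 zinc finger regions the fold had the form that a mean of 0 in one condition gives when 0.1 is added to both means. Among lower regions this form made up 77.3% for zinc finger genes and 82.9% for the others, and among higher regions 80% for zinc finger genes and 54.3% for the others. Such regions are said here to have an implied 0, and the reads behind the other mean are called implied reads, an inference from the folds and not a value of the tables. With 3 overexpression reads in place of each implied 0, the median fold of lower regions was 6.65 for zinc finger genes and 6.63 for the others. With 3 vector reads in place of each implied 0, the median of higher regions was 2.85 for zinc finger genes and 4.19 for the others.

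**Figure D1:**
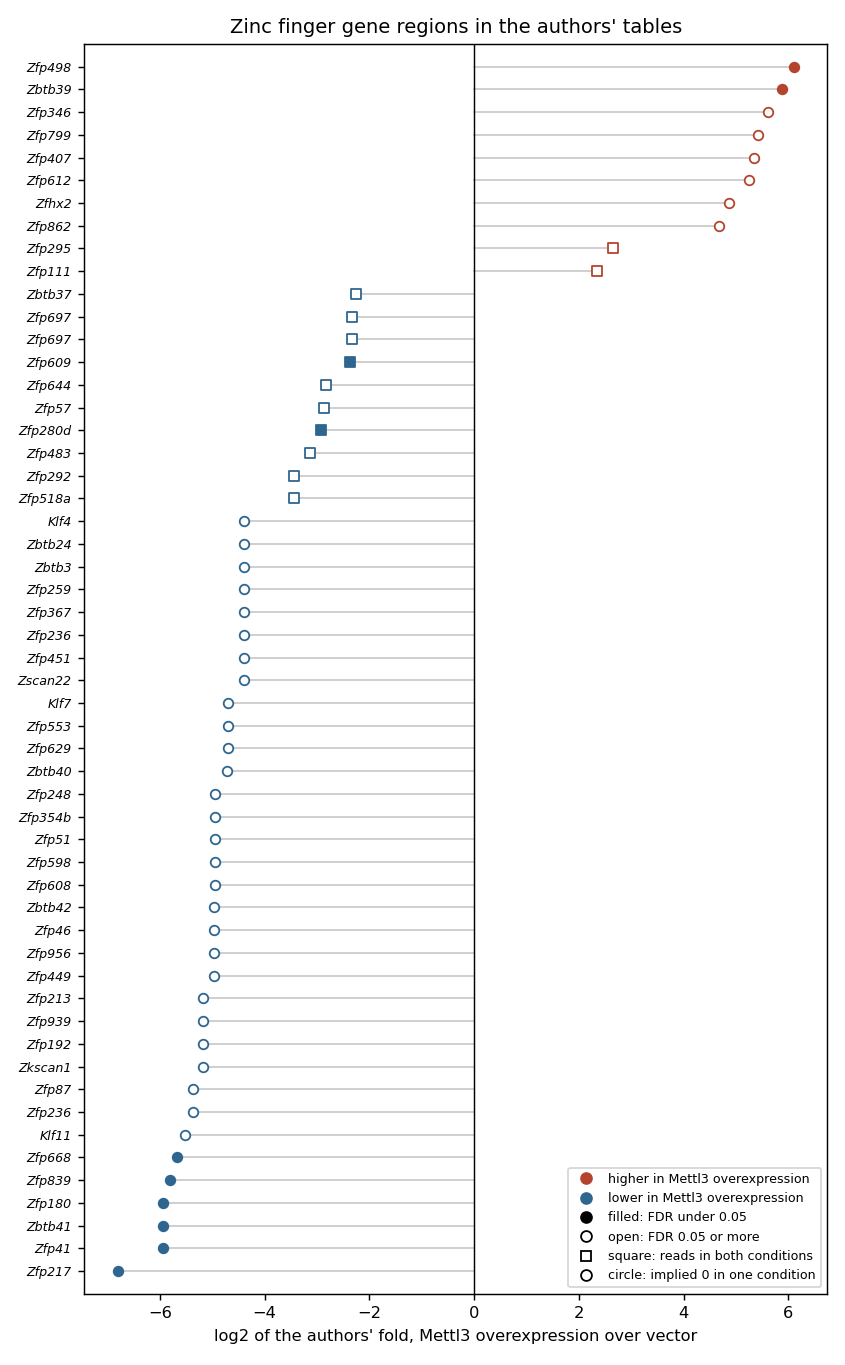
Log2 of the authors' fold, overexpression over vector, for each of the 54 zinc finger regions, with filled points for an FDR under 0.05 and circles for an implied 0 in one condition. The 10 higher regions lie right of 0 and the 44 lower regions left of it; Zfp217 has the most negative value (-6.80) and Zfp498 the highest (6.10).

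Zfp217 had the largest fold among the zinc finger regions. Its human counterpart is amplified in several cancers and works in a corepressor complex with the demethylase LSD1, and in mouse embryonic stem cells the protein has been reported to bind Mettl3 and to hold back m6A writing. The region, on transcript NM_001107813, lay on chromosome 3 from 173096853 to 173097068 (215 bp, coordinates here and elsewhere as deposited, on a build other than GRCr8). It fell with a fold of 111.8 (log2 of overexpression over vector -6.80) and an FDR of 4.76e-05 per the authors' deposited table. The implied reads were 0 in the overexpression libraries and 22 in the vector libraries, the most of any lower zinc finger region with an implied 0. Taking 3 overexpression reads for that 0 gave a fold of 23.8, in which a vector read counts 4.09 times an overexpression read, and a ratio of unweighted reads of 7.33.

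Zfp609 had the smallest p of the zinc finger regions and one of their smaller folds. The protein works with the cohesin loader Nipbl in mouse cortical neurons. Its 345 bp region on chromosome 8, from 70923655 to 70924000, fell with a fold of 5.20 and an FDR of 2.00e-07 per the authors' deposited table. This fold was not of the implied 0 form, so reads were present in both conditions. Their number is not settled, because 4 pairs of whole reads in the range searched give the same fold. They run from 18 overexpression and 24 vector reads up to 75 and 96. In this fold a vector read counts 4.09 times an overexpression read, so the unweighted reads differed far less than the fold. Zfp280d, also on chromosome 8 (74136241 to 74136520), was the other passing region with reads in both conditions. It fell with a fold of 7.56 (FDR = 0.0377) per the authors' deposited table. In the range searched, 19 pairs of reads give that fold under the same weighting. These run from 8 overexpression and 16 vector reads up to 53 and 100.

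The other 5 zinc finger regions that fell lay in Zfp180, Zbtb41, Zfp839, Zfp41 and Zfp668, and each had an implied 0 in the overexpressing cells. Zfp180, the rat Kruppel-type gene rKr1, had a fold of 61.3 at chromosome 1 from 82186081 to 82186344 (FDR = 0.0137) per the authors' deposited table. Zbtb41, a BTB domain gene on chromosome 13 (61533141 to 61533304), had a fold of 61.5 with the same FDR of 0.0137 per the authors' deposited table. The Zfp41 region on chromosome 7 (116554221 to 116554540) also had a fold of 61.5, with an FDR of 0.0312 per the authors' deposited table. All of these 3 rested on 0 overexpression reads against 12 implied vector reads, so equal reads came with unequal p. Zfp839 on chromosome 6 (145127221 to 145127560) had a fold of 56.4 (FDR = 0.024) per the authors' deposited table, with 0 overexpression reads against 11 implied vector reads. For Zfp668 on chromosome 1 (206335061 to 206335420) the fold was 51.3 and the FDR 0.036 per the authors' deposited table, with 0 against 10. With 3 overexpression reads in place of 0, these 5 folds lay between 10.9 (Zfp668) and 13.1 (Zfp180, Zbtb41 and Zfp41).

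Among the regions that were higher in overexpressing cells, Zfp498 and Zbtb39 passed. Zfp498 is now named Zscan25, a SCAN domain gene. Its region on chromosome 12 from 13845081 to 13845380 rose by 68.7 times (FDR 0.00887) per the authors' deposited table, with 55 implied overexpression reads against 0 vector reads. Zbtb39, a BTB domain gene, rose on chromosome 7 (71213661 to 71213940), its fold being 58.8 (FDR = 0.024), per the authors' deposited table, with 47 implied overexpression reads against 0. Taking 3 vector reads for 0 gave a weighted fold of 4.27 for Zfp498 and 3.65 for Zbtb39, and ratios of unweighted reads of 18.3 for Zfp498 and 15.7 for Zbtb39.

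The remaining 8 higher regions did not pass. Zfp346 (JAZ), a protein that binds double-stranded RNA, came closest, with a fold of 49 and an FDR of 0.0592 per the authors' deposited table, with 39 implied overexpression reads against 0. Zfp407, which supports PPAR-gamma target genes in mouse fat cells, had a fold of 40.4, and Zfhx2, which combines zinc fingers with homeodomains, had a fold of 29.3 per the authors' deposited table. Their FDR were 0.149 and 0.217 per the authors' deposited table. Zfp799, Zfp612 and Zfp862 had folds of 42.8, 37.9 and 25.6, with FDR of 0.112, 0.137 and 0.248 per the authors' deposited table. Implied overexpression reads in these 5 genes ran from 20 in Zfp862 to 34 in Zfp799, each against 0 vector reads. Zfp295 (now Zbtb21) and Zfp111 were the 2 higher genes with reads in both conditions. The Zfp295 fold was 6.32 and the Zfp111 fold 5.07 per the authors' deposited table. In the range searched, the only pair was 30 overexpression reads against 1 vector read for Zfp295, and 45 against 2 for Zfp111. Neither passed (FDR = 0.248 for both per the authors' deposited table).

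Passing followed the number of implied reads closely. The implied reads and the authors' p both derive from the same signal, so this relation is built in and is no result about zinc finger genes. Of the 34 lower zinc finger regions with an implied 0, the 28 with 9 or fewer vector reads did not pass and the 6 with 10 or more did. Over all listed lower regions with an implied 0, none of 1260 with up to 9 vector reads passed, 38 of 47 with 10 reads passed, and all 108 with 11 or more passed. The median was 6 implied vector reads both for zinc finger genes and for the other regions. Of the 8 higher zinc finger regions with an implied 0, the 2 that passed had 47 and 55 overexpression reads and the others had 20 to 39. The median of these 8 was 33 overexpression reads, against 31 for the other higher regions with an implied 0.

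**Figure D2:**
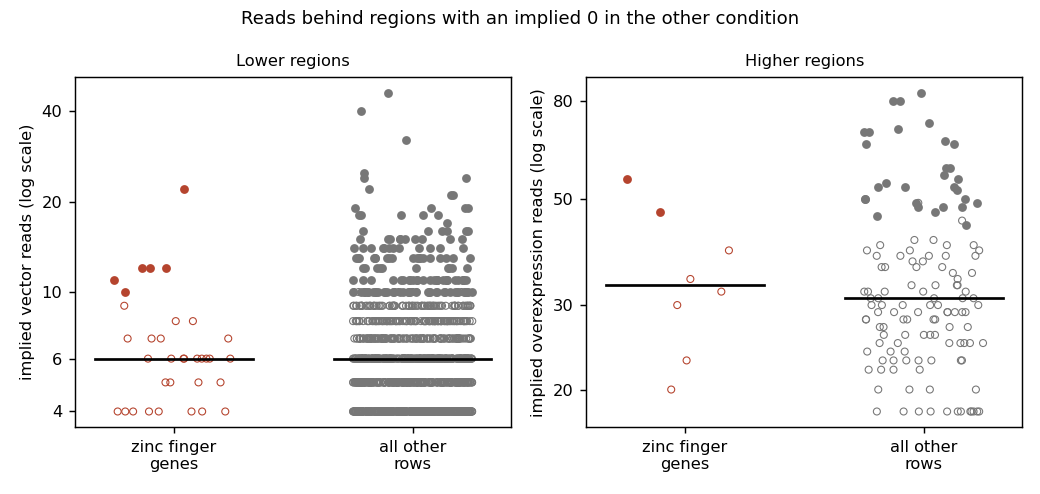
Implied reads (log scale) in the condition with signal, for regions with an implied 0 in the other condition, with 1 point per region, filled for an FDR under 0.05, and a line at the median. Lower zinc finger regions run from 4 to 22 vector reads around a median of 6, the other lower regions from 4 to 46 around the same median, and the filled points begin at 10 reads.

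Of the 18 Klf genes, the Kruppel-like factors, in RefSeq 3 had a region (16.7%, where 6.75% of protein-coding genes outside the rule did, a difference not tested). All 3 regions were lower, and the other 15 genes had no row in the tables. None of the 3 regions passed, though all have an unadjusted p under 0.05; with 14.0% of all listed regions passing, 0 of 3 says nothing about the family. Klf11, a TGF-beta-inducible repressor, had a 135 bp region on chromosome 6 from 60703161 to 60703296. The fold was 46.3 with an FDR of 0.0592 per the authors' deposited table, with 0 overexpression reads against 9 implied vector reads. Klf7, studied for its role in axon growth, had a fold of 26.1 on chromosome 9 from 71787155 to 71787340 (FDR = 0.217) per the authors' deposited table, with 0 against 5. Klf4 had a 259 bp region on chromosome 5 from 76450421 to 76450680, where the fold was 21.1 at an FDR of 0.248 per the authors' deposited table. Its support of 0 overexpression reads against 4 implied vector reads was the smallest number accepted here for an implied 0 in a lower region. In all, 8 zinc finger regions and 390 other regions had it. Klf5, which drives growth genes in injured arteries, had no row.

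The BTB domain genes held 7 regions under the prefix Zbtb, 6 lower and 1 higher. Beside Zbtb41 and Zbtb39, which passed, the lower regions of Zbtb37, Zbtb42, Zbtb40, Zbtb24 and Zbtb3 did not. Zbtb37 had a fold of 4.79, the smallest of all lower zinc finger regions, with an FDR of 0.0787 per the authors' deposited table. Zbtb24, mutated in a human immunodeficiency with unstable centromeres, had a fold of 21.1 (FDR = 0.248) per the authors' deposited table. Folds of the other 3 lay between 21.1 and 31.2 per the authors' deposited table. Genes with a Zkscan or Zscan symbol, deposited or current, other than Zfp498, had lower regions that did not pass. They were Zkscan1 and Zfp192 (now Zkscan8), each with a fold of 36.3, and Zscan22, with a fold of 21.2, per the authors' deposited table. Zscan22 was not matched to a current RefSeq gene.

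**Figure D3:**
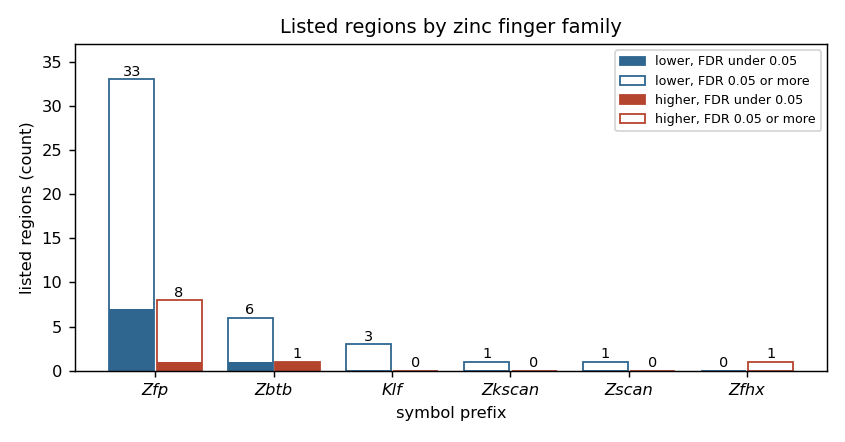
Number of listed regions by symbol prefix, lower (blue) and higher (red) in Mettl3-overexpressing cells, with the filled part at an FDR under 0.05. Zfp genes hold 33 lower and 8 higher regions, and the 3 Klf regions are all lower with none filled.

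Several genes that carry the zinc finger name are known for work other than reading DNA. None of those named here passed, where 14.0% of all listed regions did, so with 3 genes this says nothing about such genes. These genes, and those described by a role in the next paragraph, were picked for their known roles after their values were seen. Zfp598, a ubiquitin ligase that marks collided ribosomes, had a lower region of 135 bp with a fold of 31.1 (FDR = 0.159) per the authors' deposited table. Zfp451, a SUMO ligase, had a lower region of 81 bp with a fold of 21.2 (FDR = 0.248) per the authors' deposited table. Zfp259, now Zpr1, is a zinc finger protein that binds growth factor receptors, and its lower region had a fold of 21.1 (FDR = 0.248) per the authors' deposited table. All 3 had 0 implied overexpression reads, against 6 vector reads for Zfp598 and 4 for each of the others.

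Other lower regions that did not pass lay in genes with known roles in chromatin and transcription. Zfp292 (Zn-15), first studied in rat as an activator of the growth hormone gene, had a fold of 10.9 (FDR = 0.112) per the authors' deposited table. Zfp518a had the same fold and FDR, and 3 pairs of whole reads in the range searched give that fold. Zfp644, which brings the histone methyltransferase G9a to chromatin, had a fold of 7.12 (FDR = 0.112) per the authors' deposited table. Zfp57, a KRAB protein that protects genomic imprints, had a fold of 7.32 over a 52 bp region (FDR = 0.137) per the authors' deposited table. Zfp608, the relative of Zfp609, had an implied 0 and a fold of 31.1 (FDR = 0.159) per the authors' deposited table. The smallest p among the lower regions that did not pass, after those of Klf11 and Zbtb37, belonged to Zfp236 and Zfp87, with folds of 41.3 and 41.2 and an FDR of 0.0787 each per the authors' deposited table. The lower Zfp genes whose values are not given elsewhere, which are Zfp939, Zfp213, Zfp46, Zfp956, Zfp248, Zfp51 (now Zfp54), Zfp354b, Zfp483, Zfp629 and Zfp367, had folds between 8.74 (Zfp483) and 36.2 (Zfp939) per the authors' deposited table, and none passed.

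Zfp236 and Zfp697 had 2 regions each, all lower. The Zfp236 regions lay 5.48 kb apart on chromosome 18 (78585361 to 78585534 and 78591010 to 78591180), with folds of 21.2 and 41.3 per the authors' deposited table, with 0 overexpression reads against 4 and 8 implied vector reads. The Zfp697 regions lay 27.9 kb apart on chromosome 2 (220050841 to 220051340 and 220079281 to 220079740). Both had a fold of 5.07 and an FDR of 0.217 per the authors' deposited table, and at 499 and 459 bp they were the longest zinc finger regions.

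Regions in zinc finger genes were longer than the other listed regions, in both directions. The median length, as deposited, was 271 bp for the 54 zinc finger regions (quartiles 138.5 and 374 bp), against 128 bp for the 1913 others (82 and 219 bp). Among lower regions it was 261 bp against 129 bp, and among higher regions 279 bp against 122 bp. Regions of 200 bp or more made up 61.1% of the zinc finger regions (33 of 54) and 28.1% of the others (538 of 1913). The others include 15 regions of zinc finger genes outside the rule, described below. Of these 15, 11 were 200 bp or more (73.3%), so the trait is not particular to the symbols chosen. By prefix the median was 279 bp for Zfp and for Zbtb, but 185 bp for the 3 Klf regions. The single Zkscan, Zscan and Zfhx regions were 149, 57 and 379 bp long. The length 379 bp was the most common single value, with 11 zinc finger regions (20.4%) and 127 of the others (6.64%). This comparison of lengths is a description of the listed regions, and the difference was not tested.

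The longer lengths went with regions whose edges both lay on a grid of 20 bp. Such regions were 53.7% of the zinc finger regions (29 of 54) and 20.8% of the others (397 of 1913). On the grid the median length was 359 bp for zinc finger genes and 319 bp for the others. Off the grid it was 135 bp against 111 bp, so most of the distance between the medians went with the share of regions on the grid. Zinc finger regions were also the longer ones at like numbers of reads. Among lower regions with an implied 0 and 5 to 6 vector reads, the median length was 210 bp in 13 zinc finger regions and 121 bp in 519 others. At 7 to 9 reads it was 170 bp in 7 zinc finger regions and 137 bp in 323 others. Among the regions that passed, it was 289 bp in 10 zinc finger regions and 158 bp in 265 others.

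**Figure D4:**
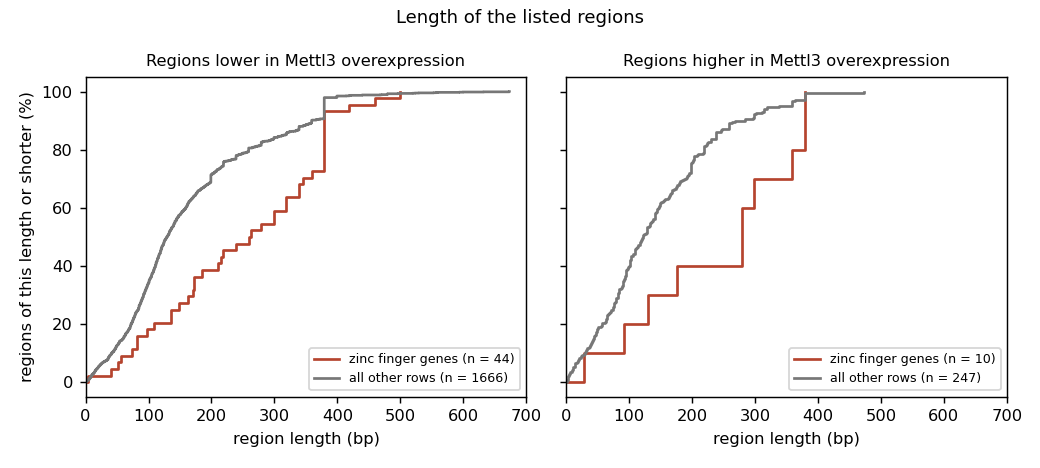
Cumulative share of regions (%) by length (bp), for lower regions (left) and higher regions (right), zinc finger genes in red and all other rows in grey. The zinc finger curves lie to the right in both panels, with medians of 261 against 129 bp for lower and 279 against 122 bp for higher regions, and step up at 379 bp.

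Very short regions also occurred. The region of Zfp553 was 4 bp long, with a fold of 26.1 (FDR = 0.217) per the authors' deposited table, and those of Zfp111 and Zfp449 were 28 and 40 bp long. Zfp449, a gene on chromosome X, had a fold of 31.3 and an FDR of 0.159 per the authors' deposited table. Only these 3 zinc finger regions were under 50 bp (5.56%), against 13.2% of the others.

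The regions lay on 20 chromosomes, with 11 of the 54 on chromosome 1 (20.4%, against 13.7% of the others), 10 of them lower. Regions of different zinc finger genes lay within 1 Mb of each other in 6 pairs made up of 9 genes. In 4 pairs both were lower. These were the 3 pairs among Zfp553, Zfp629 and Zfp668 on chromosome 1, and Zfp46 with Zbtb40 on chromosome 5. In 2 pairs the directions differed: Zfp111 (higher, not passing) lay 121 kb from Zfp180 (lower, passing), and Zfp862 (higher) lay 505 kb from Zfp956 (lower), neither of which passed. Genes of one cluster can share near-identical stretches, and the sources used here do not say how reads that match several copies were placed, so the values of clustered Zfp genes are uncertain.

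Of the 52 genes, 48 matched a current RefSeq gene by gene ID, and 5 of these now have another symbol. Counted by current symbols, 49 of 499 protein-coding zinc finger genes had a listed region (9.82%), against 1530 of 22655 other protein-coding genes (6.75%). Which of these genes had enough signal to be tested is unknown. The 49 are not a subset of the 52 genes. They leave out Zfp259 (now Zpr1) and the 4 genes not matched, and take in genes listed under names outside the rule. By prefix, 8 of 44 Zbtb genes, 33 of 380 Zfp genes and 1 of 34 Znf genes had a listed region. No deposited name among the 52 begins with Znf. In the tables' own annotation 45 of the 52 genes were marked as metal ion binding and 21 as sequence-specific transcription factors. Klf4 was the only one of them placed in a KEGG pathway, the signalling that regulates pluripotency of stem cells, while 31.5% of the other regions had a pathway.

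Zinc finger genes whose symbols do not follow the rule were looked up from a separate list. Of 74 such genes, 13 had a region, where 6.75% of all protein-coding genes outside the rule had one, and this was not tested. They held 13 lower and 2 higher regions, of which 2 fell and 2 rose. Each pair was 13.3% of these 15 regions, where 11.3% of all listed regions passed as lower and 2.64% as higher; with 2 regions this was not tested. Rest, the repressor of neuronal genes, rose with a fold of 5.60 (FDR = 0.0142) per the authors' deposited table. Trps1, a GATA-type repressor, had a region that rose (fold 9.95, FDR = 0.0127 per the authors' deposited table) and a lower one that did not pass. Bnc2 had a region that fell with a fold of 6.02 (FDR = 0.0248) and another lower one that did not pass, per the authors' deposited table. Zeb2, a repressor of epithelial genes, fell with a fold of 51.3 (FDR = 0.036) per the authors' deposited table. Lower regions that did not pass lay in Egr1, Gli3, Glis3, Gzf1, Prdm10, Prdm15, Rreb1, Sp4 and Tshz1. The median length of these 15 regions was 219 bp.

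Partners of KRAB and BTB proteins were looked up as well. Of 38 corepressor genes 6 had a region, where 6.75% of protein-coding genes outside the rule had one, and this was not tested. They held 8 regions in all, and 1 region passed (12.5%, where 14.0% of all listed regions did). This was the lower region of Ncor1, a corepressor that BTB factors recruit, with a fold of 5.94 (FDR = 0.00301) per the authors' deposited table. Ncor1 and the DNA methyltransferase Dnmt1 each also had a higher region that did not pass. Dnmt1 had a lower one as well, as did Sin3a, Hdac1, Mbd2 and the ubiquitin ligase scaffold Cul3, and none of these passed. Trim28 and Setdb1, the core of KRAB-mediated repression, had no row. Among 22 smooth muscle and growth gene symbols tied to Klf4 and Klf5, 20 of them in RefSeq, 3 had a region and Ccnd1 (cyclin D1) fell. That was 33.3% of the 3 regions, where 14.0% of all listed regions passed. All 3 were lower, as were 86.9% of all listed regions, and with 3 regions neither share was tested. The Ccnd1 fold was 126.8 (FDR = 7.28e-06) per the authors' deposited table. Myocd, the coactivator that Klf4 opposes, and Cnn1 (calponin) had lower regions with folds of 41.1 and 21.1 that did not pass (FDR = 0.112 and 0.248) per the authors' deposited table.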

How the data were processed

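The 2 tables hold the authors' comparison of Mettl3 overexpression with vector, 1 for higher and 1 for lower regions, per the file headers. The deposited fold is a ratio of at least 4 in every row. Each row has a deposited p-value under 0.05 and an FDR, and the deposited score equals the −log10 of the p-value. Per the submitters' processing notes, Trimmomatic 0.36 served for trimming. The sources used here do not give the aligner, genome build, peak settings, use of input or the test behind the p-values. Names of regions begin with diffreps, a differential enrichment program. Depth per library is unknown, and its relation to the unequal read weights given below was not tested.

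Rows were selected by symbol with pandas 2.3.3 under Python 3.11.15, and no test was added to the authors' FDR. The design had foreseen that no value per library would be at hand. The members, lists and rules were chosen with earlier results of these data known. Named by rule were passing, higher, repeated, Klf and Zfhx genes, the 5 smallest p among the others, and the 3 shortest and 3 longest regions.

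Implied reads were read from folds with a single decimal (within 1e-06), taking 0.1 as the added constant, 0.503 as the weight of a vector read and 0.123 as that of an overexpression read. Of such means under 6, 95.2% (vector) and 96.7% (overexpression) lay within 0.015 of a multiple, where chance gives 5.96% and 24.4%. Both weights were chosen to make this share, less chance, the largest in these same folds. The chance values hold for a weight fixed beforehand, so these shares are no independent check. An implied 0 needed at least 4 vector or 18 overexpression reads. For the other folds, pairs of reads were searched up to 100 reads in the condition with more signal. The range in the other condition was limited too, so further pairs may exist. The decoding step was run on simulated folds made with the form that it assumes. That run checks the decoding only and cannot show that the deposited folds have this form. Coordinates are as deposited, and starts are certain to 1 base only. They are not on GRCr8: a region reaches 248209735 on chromosome 4, where the last GRCr8 protein-coding gene ends at 184393457. Current symbols come from RefSeq (GRCr8), and region sequences were not used here.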

Additional observations from a re-analysis of the deposited data

How the results depend on the processing

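No paired analysis was possible because values per library are not in the tables used here, and no library could be left out. At an FDR under 0.01, 2 zinc finger regions fell (Zfp609 and Zfp217) and 1 rose (Zfp498), in place of 8 and 2 at 0.05. Leaving out folds with a single decimal, which removes every region with an implied 0, left 2 lower (Zfp609 and Zfp280d) and 0 higher passing regions. The wider rule for symbols gave 10 lower and 4 higher passing regions. Leaving out genes beside another zinc finger gene in the RefSeq order, or not matched to it (4 genes), left 7 lower and 1 higher passing regions, without Zfp668 and Zfp498; for passing regions this setting was chosen after seeing the data. It left 32 lower and 8 higher listed regions. Counts of listed and passing regions were within 1.5 times those reported when genes replaced regions or regions under 50 bp were left out, as were listed regions under the wider rule and passing ones under current symbols. The median fold of lower zinc finger regions was 28.7 as deposited, 6.65 with 3 reads in place of an implied 0, 58.8 among passing regions and 7.22 without single-decimal folds; smaller sets and the constant account for these by construction.

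The settings for length were chosen after seeing the data. Against 271 bp over all zinc finger regions, the median was 289 bp among passing regions, 249 bp with an implied 0, 279 bp on RefSeq NM transcripts, 279 bp in Zfp genes and 247 bp under the wider rule, and 135 bp off the 20 bp grid. The other regions had 158, 121, 125, 128, 128 and 111 bp in the same settings. With depth unknown, most of these regions rest on few implied reads.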
